A study of Mus musculus with 4 samples.

Results

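Solute carriers are membrane proteins that move nutrients, ions, metals and metabolites across the plasma membrane and the membranes of organelles. Most carriers of the Slc25 family serve the inner mitochondrial membrane, while Slc39 proteins bring zinc into the cytosol and Slc30 proteins take it out. In tumour cells the carriers of amino acids, sugars and lactate set how nutrients enter and how waste leaves. The 110 genes described here are the protein-coding rows of the deposited table whose symbol starts with Slc, a family number, the letter a and a number, and whose base mean reached 10. That quantity is the authors' mean of normalised reads over all libraries. Slc2a1, Slc3a2, Slc7a3, Slc7a5 and Slc7a11 were left out by rule. Of 337 such rows in the table, 182 had values and 110 reached that base mean, among 8562 genes of the table that did. Beside the symbol and the removed genes, the rule uses the base mean, which pools both groups. Just inside the minimum were Slc22a4 (base mean 10.3) and Slc46a1 (10.8), and just outside it Slc22a5 (9.86) and Slc22a23 (9.53). A few genes of the set carry the symbol but encode no carrier: Slc9a3r1 and Slc9a3r2 are scaffold proteins, and Slc7a6os and Slc4a1ap are named for a neighbouring gene or a binding partner.

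All libraries came from MC38/gp100, a mouse tumour line derived from MC38 colon adenocarcinoma and named for the melanocyte antigen gp100. Cells grown in RPMI medium with serum received either the solvent DMSO or 1 µM GSK3368712, which blocks type I protein arginine methyltransferases, for 5 days. There were 2 libraries per group (A and B), and nothing in the labels says that they came from separate cultures, so their spread may be technical. Reads recovered at genes came to between 1017139 and 1112049 per library, leaving out 2 genes whose reads could not be recovered. In bulk RNA, fewer cells that express a gene and less RNA per cell cannot be told apart. Of the marker lists, melanocyte Pmel (opposite Dgka and Cdk2) was at 25.1 and 33.4 normalised reads in DMSO and at 27.8 and 35.1 with the inhibitor, and the other 3 melanocyte markers (Mlana, Tyr and Dct) were listed without values. Epithelial Krt8 was at 20.6 and 20.9 in DMSO and at 21.6 and 19.03 with the inhibitor, Cdh1, Krt19 and Cldn7 had a base mean of 2.22 or less, and Epcam and Krt18 were listed without values. Fibroblast markers summed to 972 and 824 reads in DMSO and to 1226 and 1140 with the inhibitor, before normalisation for depth. These sums were made up mostly of Col1a1 and Col3a1. Of 5 tested, only Col3a1 was called, as a rise (limma, adjusted p = 1.5e-07), where 1.30% of all genes tested rose. Col1a1 was at 520 and 537 normalised reads in DMSO and at 759 and 668 with the inhibitor (limma, adjusted p = 0.0566). Pdgfra (opposite Gm42802 and Gm42803) was at 65.5 and 72.02 in DMSO and at 42.2 and 53.1 with the inhibitor (limma, adjusted p = 0.233). At Pdgfrb and Dcn the groups overlapped. Leukocyte markers had values at Csf1r only (opposite Hmgxb3), from 422 to 500.0 normalised reads. The endothelial markers Pecam1 and Cdh5 summed to 1 to 6 reads, before normalisation. The part of such genes in the values below was not tested.

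No solute carrier gene passed the test. Of 110 members 0 were called (limma on the deposited log2 values, Benjamini-Hochberg adjusted p under 0.05 over 8562 genes), where 2.14% of all genes tested were called (1.30% higher and 0.841% lower with the inhibitor). The lowest adjusted p among members was 0.153 (limma, Slc25a21). At an unadjusted p under 0.05 there were 8 members, 7.27% of them, against 12.2% of all genes tested. Every other way of testing that was run also called 0 members: other scales and minimums, voom weights, a robust variance, a block for the library letter and leaving out each library. Among these the lowest adjusted p of a member was 0.0774 (limma voom with the authors' size factors, Slc22a4). Of the members, 49 had an adjusted p in the authors' deposited table, none under 0.9997, and the smallest unadjusted p there was 0.0863. That table called 0.574% of the genes to which it gave an adjusted p.

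The changes were small and of both signs. The median log2 fold change of the members, on log2 of normalised reads plus 1, was -0.06, against 0.0054 over all genes tested, and 47 members had a positive and 63 a negative value, where all genes had 4353 and 4207. The range ran from -1.53 at Slc22a4 to 1.08 at Slc25a20. At each of these the mean of 1 group lay under the base mean minimum of 10. It was 5.54 with the inhibitor at Slc22a4 and 8.07 in DMSO at Slc25a20, so both passed the minimum through the other group. Both inhibitor libraries lay above both DMSO libraries in 16 members (14.5%, against 20.7% of all genes tested) and below them in 27 (24.5%, against 20.5% of all genes tested). In the remaining 67 the groups overlapped. Together the groups did not overlap in 39.1% of members and in 41.2% of all genes tested.

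**Figure D1:**
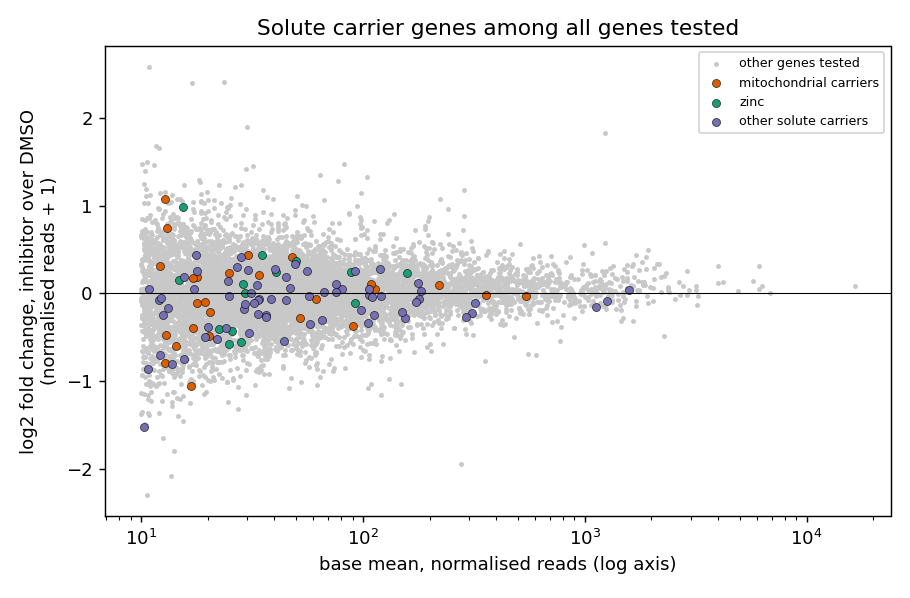
Each point is a gene tested, with its base mean on a log axis and the log2 fold change of inhibitor over DMSO on log2 of normalised reads plus 1. The 110 solute carrier genes (coloured by mitochondrial, zinc and other) lie between -1.53 and 1.08, and the widest values are at low base means.

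The depth limits what a missing call says. A member had to differ by a certain fold to pass, worked out as its standard error times the smallest t statistic that was called (3.37) in the limma fit to log2 of normalised reads plus 1. The median of that fold was 1.88 over the members. For the 29 members with a base mean from 10 to 20 it was 2.63, for 41 members from 20 to 50 it was 1.92, for 15 from 50 to 100 it was 1.56, and for 25 members from 100 up it was 1.42. For 81 of the 110 members the 95% interval of the log2 fold change lay within 1 of 0, so that a 2-fold difference in either direction fell outside it. All 40 members with a base mean of at least 50 were among them. For 25 members the interval lay within 0.5 of 0.

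**Figure D2:**
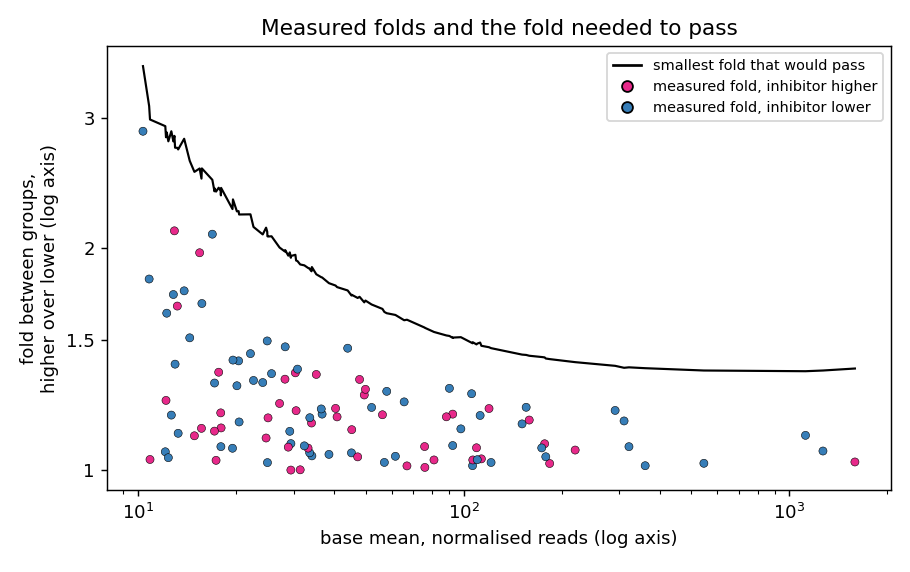
For each of the 110 members, the fold between groups (higher over lower, log axis) is plotted against the base mean (log axis). Folds come from the log2 fold change on log2 of normalised reads plus 1. Points are pink where the inhibitor was higher and blue where it was lower. The black line is the smallest fold that would have passed, from 3.53 at the lowest base mean to 1.37 at the highest, and all points lie under it.

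The highest read levels lay at genes with a neighbour transcribed the other way across part of their exons. In GENCODE M21 (GRCm38), 44 of the 110 members (40%) shared exon bases with such an opposite gene, against 37.9% of all genes tested. These 44 held 70.7% of the members' summed base mean, where such genes held 59.9% of the sum over all genes tested. The 6 highest members all had such an overlap, and 8 of the 10 highest did. Whether the authors counted by strand, and on which strand, is not stated in the labels or headers. The kit was stranded, per the labels' protocols, but that does not give the setting used in counting. How many of a member's reads came from its opposite neighbour therefore cannot be told from the values. The strand setting could bear on the values of members without an overlap too, and its effect was not tested. Slc6a20b, an amino and imino acid carrier gene, led with a base mean of 1589 and shares 1800 bp of exon with Sacm1l, a phosphoinositide phosphatase gene that itself was given 18.2. Slc26a10 (1268) shares 715 bp with B4galnt1, given 71.9. Slc24a5, the cation exchanger of melanosomes, had 1120 and shares 921 bp with Myef2, given 60.9. This pigment cell gene stood among the 6 highest members, while 3 of 4 melanocyte markers had no values. Slc25a35 (546) lies opposite Rangrf (11.1), Slc25a26 (361) opposite Lrig1 (308.8), Slc5a2 (321.5) opposite BC017158 (14.5) and Slc5a6 (292) opposite Atraid (12.5). Without an overlap the highest were Slc38a2 (311), a sodium-coupled carrier of neutral amino acids, and the ADP/ATP carrier Slc25a4 (220). Per kilobase of exon, base means ran from 0.805 at Slc4a7 to 481 at Slc24a5, with a median of 5.64 for the 66 members without an overlap and 11.9 for the 44 with one.

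**Figure D3:**
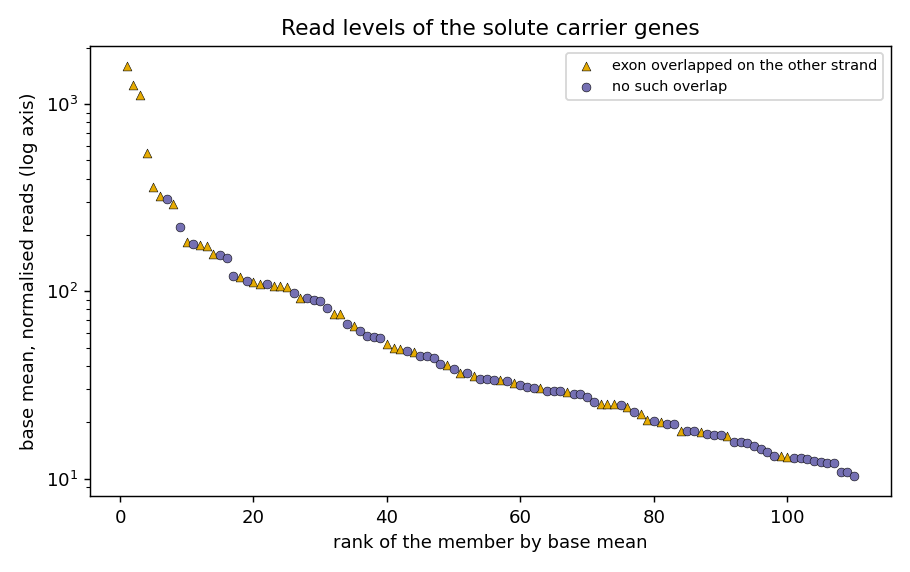
The base mean of each of the 110 members (log axis) is plotted against its rank, triangles marking members with an exon overlapped on the other strand. The 6 highest, from 1589 down to 321.5, are triangles, and the circle that follows is Slc38a2 at 311.

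Mitochondrial carriers, taken here as all Slc25 genes of the set, were the largest class, with 26 members and 0 called. Their median log2 fold change was -0.03, with values from -1.06 to 1.08. Slc25a35, Slc25a26, Slc25a4, Slc25a3 and Slc25a5, the members of the class with the highest base means, stayed close between groups. Slc25a4 was at 230 and 196 normalised reads in DMSO A and B and at 211 and 242 in inhibitor A and B, a log2 fold change of 0.09 ± 0.14 (SE). Slc25a5, a second ADP/ATP carrier gene of near-identical sequence, was at 112 and 99.2 in DMSO and at 112 and 114 with the inhibitor (0.10 ± 0.17). The groups overlapped at Slc25a4 and touched at Slc25a5, and reads may be shared among these copies. Slc25a3, the phosphate carrier, was at 108 and 115 in DMSO and at 118 and 112 with the inhibitor (0.05 ± 0.17). Slc25a26 brings S-adenosylmethionine, the methyl donor of methyltransferases, into mitochondria. It was at 319 and 409 in DMSO and at 376 and 339 with the inhibitor, and its 95% interval on the log2 scale ran from -0.29 to 0.25. Slc25a35 was at 484 and 623 in DMSO and at 498 and 580 with the inhibitor. In both genes, each with an opposite neighbour, the DMSO libraries lay outside the inhibitor libraries on either side.

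The widest differences among mitochondrial members lay at low counts. Slc25a21 (ENSMUSG00000035472.14, GRCm38 chromosome 12, 56712634 to 57197472, minus strand), a carrier of 2-oxodicarboxylates that shares 189 bp of exon with Pax9, was at 23.3 and 22.96 in DMSO and at 9.26 and 12.02 with the inhibitor. The groups did not overlap, at -1.06 ± 0.39 on the log2 scale (limma, adjusted p = 0.153). Slc25a20 (ENSMUSG00000032602.6, chromosome 9, 108662088 to 108684641, plus strand), the carnitine-acylcarnitine carrier that feeds fatty acids to oxidation, was at 9.87 and 6.26 in DMSO and at 18.5 and 17.02 with the inhibitor. The means were 8.07 ± 2.55 and 17.8 ± 1.06 (SD, n = 2), which is 1.08 ± 0.45 on the log2 scale (limma, adjusted p = 0.241). Slc25a39, required for glutathione import and of a higher base mean (90.3), had 92.4 and 112 in DMSO and 74.1 and 83.1 with the inhibitor (-0.37 ± 0.18; limma, adjusted p = 0.379). Again the groups did not overlap in either gene, and neither has an opposite-strand exon. Of the citric acid cycle's partners, the citrate carrier Slc25a1 was at 47.5 and 34.4 in DMSO and at 46.3 and 63.1 with the inhibitor (0.41 ± 0.23). The dicarboxylate carrier Slc25a10, opposite Gm11788, was at 9.87 and 9.39 and at 16.5 and 17.02 (0.74 ± 0.43; limma, adjusted p = 0.484). The iron carriers Slc25a37, opposite Gm31748 and Gm27223, and Slc25a28 had log2 fold changes of -0.28 ± 0.22 and 0.21 ± 0.27, and the aspartate-glutamate carriers Slc25a12 and Slc25a13 had -0.11 ± 0.37 and -0.39 ± 0.38. Direction was split in this class, with 12 positive and 14 negative values, 3 members entirely higher and 7 entirely lower with the inhibitor. Together these were 38.5% of the class, near the 41.2% of all genes tested.

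**Figure D4:**
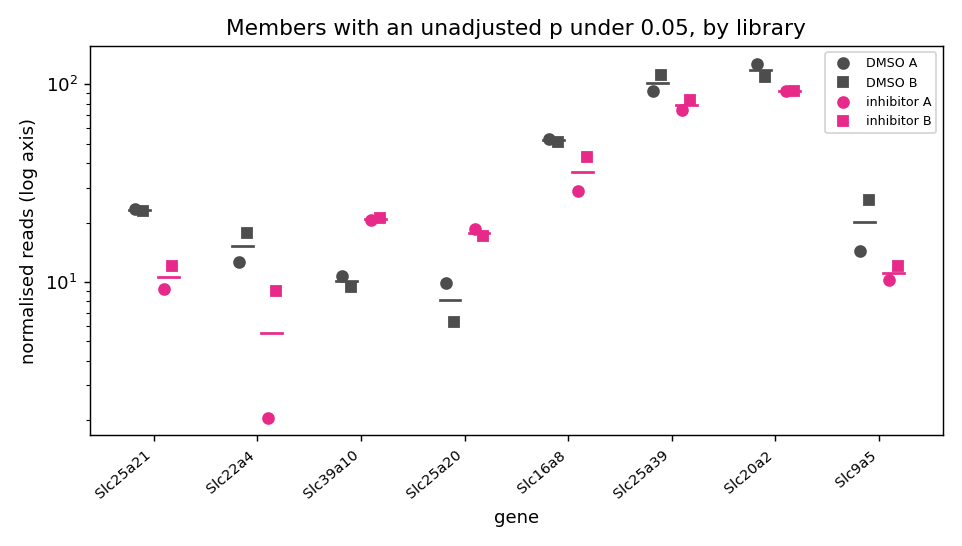
Normalised reads (log axis) in each library for the 8 members with an unadjusted p under 0.05, DMSO in grey and inhibitor in pink, library A as circles and B as squares, with a line at each group's mean. The groups do not overlap in any of the 8, which were picked by that p; inhibitor values are higher at Slc39a10 and Slc25a20 and lower at the other 6.

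Zinc carriers numbered 14, of which 9 were Slc39 and 5 Slc30 genes, and 0 were called. The class median of the log2 fold change was 0.13, with 9 positive and 5 negative values. The groups did not overlap in 9 of the 14, with the inhibitor above in 6 and below in 3, and over all genes tested they did not overlap in 41.2% (20.7% above and 20.5% below). With 14 genes and none called, this count is a description only. Among importers, Slc39a10 (ENSMUSG00000025986.6, chromosome 1, 46807544 to 46892852, minus strand) was at 10.8 and 9.39 in DMSO and at 20.6 and 21.03 with the inhibitor. Its means were 10.1 ± 0.970 and 20.8 ± 0.322 (SD, n = 2), which is 0.98 ± 0.40 on the log2 scale (limma, adjusted p = 0.229). Slc39a14, which also carries iron and manganese, went the other way in value, with 34.99 and 32.4 in DMSO and 26.7 and 19.03 with the inhibitor (-0.56 ± 0.29; limma, adjusted p = 0.459). Slc39a6, the importer of the highest base mean (92.4), was at 101 and 90.8 in DMSO and at 87.5 and 90.1 with the inhibitor (-0.11 ± 0.18). Slc39a1 was at 75.4 and 86.6 in DMSO and at 89.5 and 102 with the inhibitor (0.24 ± 0.18). None of these 4 has an opposite-strand exon.

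Among the genes that take zinc out of the cytosol, Slc30a1 encodes the exporter of the plasma membrane, Slc30a4 a vesicle carrier and Slc30a5 a carrier of the secretory pathway. Slc30a1 (opposite 1700034H15Rik) was at 30.5 and 29.2 in DMSO and at 41.2 and 40.1 with the inhibitor, giving 0.43 ± 0.26 on the log2 scale (limma, adjusted p = 0.545). For Slc30a4 (opposite 4930417H01Rik) the values were 145 and 147 in DMSO and 163 and 180 with the inhibitor (0.23 ± 0.15; limma, adjusted p = 0.596). Slc30a5 was at 33.2 and 41.8 in DMSO and at 44.2 and 44.1 with the inhibitor (0.24 ± 0.24). The inhibitor libraries were the higher ones in these 3, and in none did the difference pass. Slc30a7 (opposite Gm6649 and Gm43106) and Slc30a9 overlapped between groups, with -0.58 ± 0.32 and -0.43 ± 0.31. Slc30a1 is a known target of the zinc-sensing factor MTF1, which binds metal response elements. The promoters of the 3 Slc30 genes whose groups did not overlap are shown for their matches to the core of that element (RefSeq sequences on GRCm38.p6, the 250 bases before the start site, 5′ to 3′, matches in capitals). They are chr2:122702664-122702913 on the minus strand for Slc30a4, chr13:100833428-100833677 on the minus strand for Slc30a5 and chr1:191906531-191906780 on the plus strand for Slc30a1.
Slc30a4: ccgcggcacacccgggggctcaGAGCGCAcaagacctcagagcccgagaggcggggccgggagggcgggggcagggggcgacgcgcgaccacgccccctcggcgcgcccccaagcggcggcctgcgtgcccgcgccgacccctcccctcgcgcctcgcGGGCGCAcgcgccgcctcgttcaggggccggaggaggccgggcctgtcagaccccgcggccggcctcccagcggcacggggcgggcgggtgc
Slc30a5: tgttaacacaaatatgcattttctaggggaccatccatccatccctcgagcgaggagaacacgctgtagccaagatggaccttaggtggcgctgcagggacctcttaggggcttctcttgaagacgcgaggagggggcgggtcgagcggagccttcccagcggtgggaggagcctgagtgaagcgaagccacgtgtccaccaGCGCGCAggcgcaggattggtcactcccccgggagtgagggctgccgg
Slc30a1: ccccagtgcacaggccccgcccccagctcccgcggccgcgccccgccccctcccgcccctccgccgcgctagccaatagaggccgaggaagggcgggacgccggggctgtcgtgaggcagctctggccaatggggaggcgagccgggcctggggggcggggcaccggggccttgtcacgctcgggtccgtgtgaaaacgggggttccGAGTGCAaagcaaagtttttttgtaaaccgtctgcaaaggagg
The motifs searched were TGCACNC and TGCGCNC on both strands. The promoter of Slc30a4 held 2 matches and those of Slc30a5 and Slc30a1 held 1 each, all on the strand complementary to the one printed. Such a match was found in 6 of 12 zinc members with a promoter in the table and in 21.3% of all genes there, taking the promoter farthest upstream of each. The zinc members had passed the base mean minimum, while the genes there include many that had not, so the shares are not of like sets. The 3 promoters shown were picked by the values of their genes, so a match is a description of the sequence only. Whether matches go with higher values under the inhibitor was not tested. Of the genes of the zinc response, Mt1 was at 58.3 and 50.1 in DMSO and at 57.6 and 64.1 with the inhibitor, Mt2 (opposite Gm45774) at 78.9 and 86.6 and at 95.7 and 115, and neither passed, nor did Mtf1 (opposite 1110065P20Rik).

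The 17 carriers of amino acids and peptides had a median log2 fold change of -0.02, and 0 were called, also at an unadjusted p under 0.05. Of these 17, 8 had a positive and 9 a negative value. The groups did not overlap in 6, with the inhibitor above in 2 and below in 4. These 6 were 35.3% of the class, against 41.2% of all genes tested (20.7% above and 20.5% below). Slc38a2 was at 336 and 333 in DMSO and at 302 and 271 with the inhibitor (-0.22 ± 0.14; limma, adjusted p = 0.545). Slc7a1, the arginine and lysine importer, was at 179 and 163 in DMSO and at 148 and 132 with the inhibitor (-0.28 ± 0.15; limma, adjusted p = 0.456). Slc1a5, the main glutamine carrier of many tumours, was at 64.6 and 65.8 in DMSO and at 52.5 and 49.1 with the inhibitor (-0.35 ± 0.21; limma, adjusted p = 0.522). Slc6a6, the taurine carrier (opposite Gm44981), was at 79.8 and 65.8 in DMSO and at 59.7 and 57.1 with the inhibitor (-0.31 ± 0.20). These 4 are the members of the class whose inhibitor libraries both lay under both DMSO libraries, and their 95% intervals all held 0. In the other direction, Slc3a1, a heavy chain of cystine transport (opposite Prepl), was at 115 and 101 in DMSO and at 136 and 126 with the inhibitor (0.28 ± 0.16; limma, adjusted p = 0.516). Slc7a7, a light chain of cationic amino acid exchange (opposite Oxa1l), was at 31.4 and 41.8 and at 46.3 and 42.1 (0.28 ± 0.25). At Slc6a20b the values of 1392 and 1756 in DMSO held those of 1571 and 1637 with the inhibitor between them (0.04 ± 0.14). The neutral amino acid carriers Slc38a1 (-0.19 ± 0.18) and Slc1a4 (-0.08 ± 0.23), the creatine carrier Slc6a8 (0.02 ± 0.20) and the glycine carrier Slc6a9 (-0.02 ± 0.17, with 3 opposite neighbours) overlapped between groups.

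The carboxylate class is the 8 Slc16 genes of the set, since classes were set by family number and not by the substrate of each gene. The best known Slc16 members move lactate and pyruvate with a proton. The lactate carriers of the plasma membrane differed little: Slc16a1 was at 179 and 186 in DMSO and at 165 and 185 with the inhibitor (-0.06 ± 0.15). Slc16a3, the exporter of glycolytic cells, was at 126 and 119 in DMSO and at 120 and 119 with the inhibitor (-0.03 ± 0.16). Slc16a8, known as the lactate carrier of retinal pigment epithelium (ENSMUSG00000032988.3, chromosome 15, 79251014 to 79254761, minus strand), was at 52.9 and 51.1 in DMSO and at 28.8 and 43.1 with the inhibitor. Inhibitor A set most of this difference, -0.55 ± 0.24 on the log2 scale (limma, adjusted p = 0.328). Slc16a11 was at 164 and 160 in DMSO and at 138 and 142 with the inhibitor (-0.21 ± 0.15; limma, adjusted p = 0.649). In this class 7 of 8 log2 fold changes were negative, with a median of -0.12, and none of these 4 genes has an opposite-strand exon.

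Carriers of inorganic ions and protons, 13 in number, had a median log2 fold change of 0.05. Slc26a10 was at 1193 and 1423 in DMSO and at 1215 and 1240 with the inhibitor (-0.09 ± 0.13). Slc24a5 was at 1086 and 1281 in DMSO and at 1073 and 1043 with the inhibitor (-0.16 ± 0.13; limma, adjusted p = 0.725), so its groups did not overlap by a narrow margin. Slc12a2, the sodium-potassium-chloride carrier, had a log2 fold change of 0.18 ± 0.23. Slc9a5, a sodium-proton exchanger, was at 14.4 and 26.1 in DMSO and at 10.3 and 12.02 with the inhibitor (-0.75 ± 0.40; limma, adjusted p = 0.394), its difference resting mostly on DMSO B. The phosphate carriers also stand as retrovirus receptors. Slc20a2 (opposite Smim19) was at 127 and 110 in DMSO and at 92.6 and 93.1 with the inhibitor (-0.34 ± 0.17; limma, adjusted p = 0.384), without overlap. Slc20a1 (opposite 9830144P21Rik and Gm4430) was at 159 and 201 and at 162 and 172 (-0.10 ± 0.15).

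Among 7 carriers of sugars and polyols, 6 had a negative log2 fold change and the median was -0.11. Here 0 were called, and the groups did not overlap in 28.6% of the class, against 41.2% of all genes tested. The highest base means lay at Slc5a2, the glucose carrier of the kidney tubule, and Slc5a6, a member of the same family that carries biotin and pantothenate, both with an opposite neighbour. Slc5a6 was at 296 and 340 in DMSO and at 235 and 295 with the inhibitor (-0.27 ± 0.14; limma, adjusted p = 0.427), its groups apart by less than 1 read. Slc5a2 was at 295 and 374 in DMSO and at 315 and 302 with the inhibitor (-0.11 ± 0.14). The groups overlapped at Slc5a2. Slc45a4 was at 34.1 and 37.6 in DMSO and at 24.7 and 27.04 with the inhibitor (-0.46 ± 0.28; limma, adjusted p = 0.551).

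Carriers of other substrates were few. Slc22a4 (ENSMUSG00000020334.6, chromosome 11, 53983123 to 54028090, minus strand), the ergothioneine carrier, had the lowest base mean of all members and the widest difference. It was at 12.6 and 17.7 in DMSO and at 2.06 and 9.01 with the inhibitor, with means of 15.2 ± 3.67 and 5.54 ± 4.92 (SD, n = 2) and -1.53 ± 0.54 on the log2 scale (limma, adjusted p = 0.170). Without inhibitor A its adjusted p was 0.785 (limma). The folate carrier Slc46a1 was likewise near the minimum, at 14.4 and 13.6 in DMSO and at 10.3 and 5.01 with the inhibitor (-0.86 ± 0.49; limma, adjusted p = 0.5001). The ascorbate carrier Slc23a2 was at 30.5 and 32.4 in DMSO and at 30.9 and 32.05 with the inhibitor (0.00 ± 0.28). Copper uptake by Slc31a1 had 0.41 ± 0.29 and its relative Slc31a2 -0.28 ± 0.26, each without overlap, while the haem carrier Slc48a1 (opposite Hdac7) had 0.01 ± 0.19. Slc18a2, the vesicular monoamine carrier (opposite Gm29261), was at 149 and 192 in DMSO and at 186 and 181 with the inhibitor. The fatty acid carriers Slc27a1 (0.25 ± 0.22) and Slc27a4 (0.30 ± 0.30), the nucleoside carrier Slc29a1 (-0.25 ± 0.26, opposite Gm17080), the nucleotide sugar carriers Slc35a4 (0.34 ± 0.22, opposite Apbb3) and Slc35a3 (-0.17 ± 0.29) and the urea carrier Slc14a1 (-0.50 ± 0.36) did not pass. The non-carriers Slc7a6os (-0.03 ± 0.21) and Slc9a3r1 (-0.07 ± 0.25) did not pass either.

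**Figure D5:**
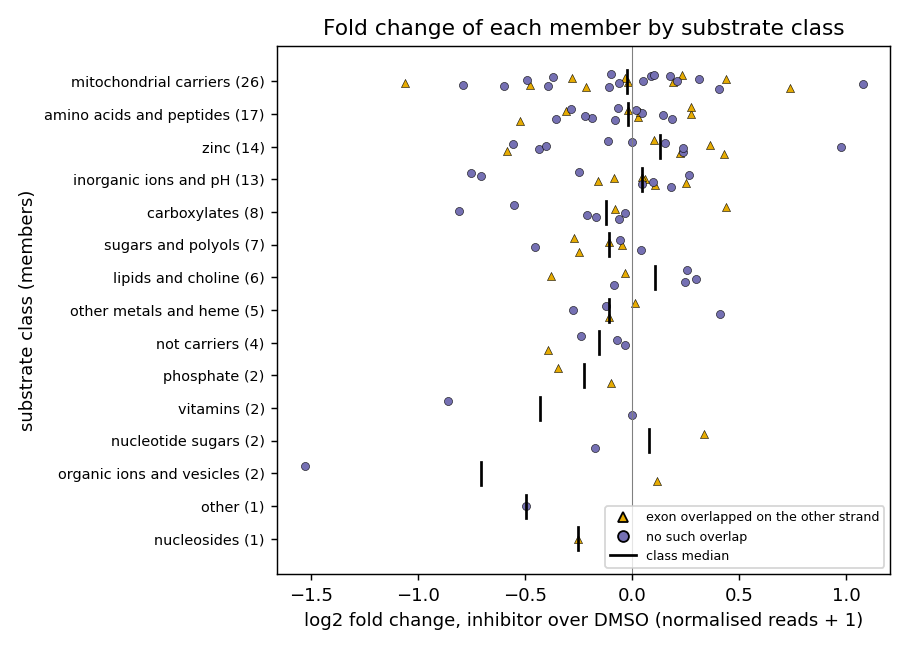
The log2 fold change of inhibitor over DMSO (normalised reads plus 1) is plotted for each of the 110 members by substrate class, with the class median as a black bar and triangles for members with an exon overlapped on the other strand. Class medians of the 3 largest classes are -0.03 for mitochondrial, -0.02 for amino acid and 0.13 for zinc carriers.

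Partners of the carriers and other transporters were read from lists of named genes. None of 10 tested genes for import of carriers into mitochondria passed, nor did any of 11 mitochondrial carriers of other names, 10 ion pumps or 5 partner chains. The last list holds Bsg, the chain that brings Slc16a1 and Slc16a3 to the plasma membrane, which was at 337 and 357 in DMSO and at 390 and 373 with the inhibitor (0.13 ± 0.13). Of 11 tested ABC transporters, pumps driven by ATP, 1 rose and none fell, where 1.30% of all genes tested rose and 0.841% fell. Abcc5, an exporter of cyclic nucleotides and other organic anions, was at 8.97 and 11.5 in DMSO and at 25.7 and 27.04 with the inhibitor (1.29 ± 0.38; limma, adjusted p = 0.0354). It was not called without any 1 of the 4 libraries (limma, adjusted p from 0.0729 without DMSO B to 0.279 without inhibitor B), with no minimum base mean (0.229) or with voom (0.0546 and 0.0972).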

How the data were processed

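The mRNA of 2 DMSO and 2 inhibitor libraries was sequenced with a stranded kit, per the labels' protocols. HISAT2 2.1.0, SAMtools 1.2, StringTie 1.3.0, DESeq2 and build mm10 are named in the submitters' processing notes, while the counting program and its strand setting are not stated there. Per the file headers, the deposited table holds log2 values per library (named logCPM, by their values log2 normalised counts shrunken to each gene's mean) and the authors' DESeq2 base mean, a signal of counts over size factors. The same deposited table gives the log2 fold change with its error, the Wald score and raw and adjusted p-values.

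Whole reads were worked back from the base means, which are sums of reads over size factors printed to full precision. The search gave 1 solution for 12576 of 12578 genes. Reads divided by size factors are the normalised reads of the text. Calls come from limma 3.58.1 (R 4.3.3) with a variance trend on the deposited log2 values, group as the only term, 8562 genes (base mean 10 or more), Benjamini-Hochberg adjusted p under 0.05, two-sided. The spread shared by all genes weighs most in these calls, since the prior carries 182 degrees of freedom and each gene 2. Log2 fold changes, standard errors and intervals come from limma on log2(normalised reads + 1), which understates changes of low genes. This last fit was tested on simulated data.

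Libraries of the same group differed by a chi-square of 1.96 (DMSO) and 1.47 (inhibitor) per gene, so none was treated as a repeat. Columns carry letters, not the labels' replicate numbers. Opposite-strand exons come from GENCODE M21, matched by gene ID for all 110 members. Members and lists were chosen with earlier results of these data known. Genes named are the 2 highest base means of each substrate class, the largest positive and negative change in each class at a base mean of at least 50, genes at the base mean minimum and, chosen after their values were seen, the members with an unadjusted p under 0.05 and others given as examples. A few genes that this rule takes in are not reported here. Intervals cover the spread in the fit only.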

Additional observations from a re-analysis of the deposited data

How the results depend on the processing

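The count of called solute carrier genes was 0 under every alternative run: no minimum base mean, a minimum of 40 (49 members tested), log2 of reads plus 1 or plus 4, voom with 2 scalings, a robust variance, the authors' adjusted p, each library left out, and the 66 members without an opposite-strand exon. The count over all genes was 183 and fell to 16 with no minimum base mean and to 26 in the authors' deposited table, which tests fewer genes; leaving out each library gave 63 (inhibitor A), 73 (inhibitor B), 144 (DMSO A) and 233 (DMSO B). With a minimum base mean of 40, limma tested 4515 genes and called 186, while the authors' table gave an adjusted p to 4527 genes. The cause of the lower count in the authors' table was not tested, nor was that of the drop with no minimum. The members' median log2 fold change was -0.0582 and stayed negative, at -0.0392 in the authors' deposited table, -0.0676 without opposite-strand exons and between -0.0683 and -0.0359 with each library left out (-0.0398 without DMSO A, -0.0486 without DMSO B). The sign of single members is not firm: with 1 library left out, 15 to 18 of the 110 had the other sign. The columns carry letters and not the labels' replicate numbers. A replicate block by letter, chosen after seeing the data, called 227 genes and 0 members. The A minus B differences of the groups correlated at 0.085 over 8562 genes. That value cannot decide whether the letters are pairs, since counting noise lowers such a correlation. The letters were not taken as pairs in the main fit. Depth limits the members under a base mean of 20, where only differences of about 2.63-fold (median) would have passed.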
